A study of Mus musculus with 9 samples.

Results

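The 7 genes described here encode the enzymes that place and remove methyl groups on DNA cytosines in mouse: the methyltransferases Dnmt1, Dnmt3a and Dnmt3b, the Dnmt1 partner Uhrf1 and the dioxygenases Tet1, Tet2 and Tet3. They were chosen by name, and all 7 were found once among the 54532 genes of the table and passed the filter on low counts in each comparison of stages. The RNA-seq libraries were made from the lambdoidal junction, the region where the facial prominences that form the upper lip and primary palate meet and fuse. Embryos were from C57BL/6J mice at the embryonic stages E10.5, E11.5 and then E12.5, numbered in days. Each stage had 3 libraries, each from a pool of embryos, and the labels name no treatment or engineered allele for any of them. P-values therefore weigh differences between stages against the spread between pools of a stage.

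DNA methylation in mammals sits mainly on cytosines of CpG pairs. Dnmt3a and Dnmt3b write new methylation, while Uhrf1 binds hemimethylated CpGs behind the replication fork and brings in Dnmt1, which copies the pattern to the new strand. The TET enzymes oxidise methylcytosine to hydroxymethylcytosine and further forms, which are lost through replication or removed by Tdg and base excision repair. In the early post-implantation embryo Dnmt3b is the abundant writer of new methylation, and Dnmt3a is used widely in later tissues. The libraries measure transcripts, and neither methylation nor protein was measured.

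Counts summed to between 16581009 and 20836804 per library. The E10.5 replicate 3 library stood apart: its deviations from the stage mean ran against the GC content of the genes (Spearman correlation across genes -0.55), and those of the other E10.5 libraries ran with it (0.44 and 0.47). Deviations from a stage mean cancel over the libraries of the stage, so these opposite signs are partly fixed by the calculation. It also had the lowest sum of endothelial markers (136 CPM against 397 and 380 in the other E10.5 libraries) and the highest of epithelial markers (1006 against 560 and 631), with CPM as read counts scaled to a common library size. Omitting it left Dnmt3b, Uhrf1 and Dnmt1 lower at E12.5 than at E10.5, and Dnmt3b and Uhrf1 lower and Dnmt3a higher at E11.5 than at E10.5, all still past the test described below. Facial mesenchyme markers, a list of 14 genes such as Msx1 and Prrx1, summed to 1491 to 2397 CPM in the E10.5 libraries (1491 in replicate 3, 2393 and 2397 in the others). The sums were 3269 to 3494 in the E11.5 libraries and 3256 to 3686 in those of E12.5. These markers were thus expressed in every library, and they cannot show how closely the dissection followed the lambdoidal junction. The 12 forebrain and eye markers summed to 401 to 558 CPM in the E10.5 libraries, and were lower later, with 154 to 167 at E11.5 and 189 to 239 at E12.5. The 14 skeletal differentiation markers summed to 777 to 1570 CPM at E10.5 and 2676 to 3519 at E12.5. In such bulk tissue, fewer cells of a type and less RNA per cell cannot be told apart.

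Promoter sequences are shown for Dnmt1, Uhrf1 and Dnmt3b, the members that passed the test as lower at E12.5 than at E10.5. Matches to a motif of E2F factors, which drive transcription at the entry into S phase, are marked. Whether these factors act on the genes was not tested. The sequences are from RefSeq (GRCm38.p6) and run from 250 bases before to 50 bases after a transcript start. The motif searched was TTTNNCGC on both strands, and capitals mark its matches, which overlap where a run of capitals is longer than the motif. All 7 genes had a promoter in the RefSeq table, with 12 starts in all.
Dnmt1, chr9:20952574-20952873, minus strand: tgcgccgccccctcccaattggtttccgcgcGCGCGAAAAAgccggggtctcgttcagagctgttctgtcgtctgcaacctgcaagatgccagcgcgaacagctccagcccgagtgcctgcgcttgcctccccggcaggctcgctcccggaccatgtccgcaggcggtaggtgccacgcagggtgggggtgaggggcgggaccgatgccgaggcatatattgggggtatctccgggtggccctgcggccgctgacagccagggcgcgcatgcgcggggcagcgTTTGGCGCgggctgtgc
Uhrf1, chr17:56304063-56304362, plus strand: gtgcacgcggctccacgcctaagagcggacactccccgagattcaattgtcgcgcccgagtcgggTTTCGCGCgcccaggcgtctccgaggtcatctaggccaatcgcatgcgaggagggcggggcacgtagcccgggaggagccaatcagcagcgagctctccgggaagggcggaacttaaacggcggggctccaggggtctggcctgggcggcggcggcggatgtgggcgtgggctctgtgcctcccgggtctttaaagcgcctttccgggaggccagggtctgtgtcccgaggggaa
Dnmt3b, chr2:153649199-153649498, plus strand: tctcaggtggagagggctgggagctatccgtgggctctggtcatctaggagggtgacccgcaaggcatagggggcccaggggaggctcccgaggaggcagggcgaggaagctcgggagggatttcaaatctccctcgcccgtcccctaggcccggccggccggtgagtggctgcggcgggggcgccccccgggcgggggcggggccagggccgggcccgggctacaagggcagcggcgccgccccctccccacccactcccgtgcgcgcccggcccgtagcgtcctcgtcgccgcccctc
The Dnmt1 window held 3 matches, 2 of them overlapping, and the other 2 starts of Dnmt1 held 0. Both starts of Uhrf1 held 1 match each. None of the letters searched for was found in the windows of the other 5 genes, which says only that these letters are not in these windows. Of 32851 RefSeq promoters of this length, 5.17% held the motif. The Dnmt1 and Uhrf1 windows shown held 33 CpG pairs each and the Dnmt3b window 30, against a median of 7 over all promoters. The other starts of Dnmt1 held 12 and 2, and the other start of Uhrf1 held 12. Members not shown were also above that median, with 17 for Tet1, 22 for Tet3, 57 for Tet2 and 18 to 47 for Dnmt3a.

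The order of the 7 genes was read from the deposited FPKM values, which are scaled by length and so allow levels of different genes to be set side by side. At E10.5 Uhrf1 was highest at 112 ± 6.26 FPKM (SD, n = 3 here and below), followed by Dnmt1 at 67.4 ± 7.32. Dnmt3a at 14.9 ± 2.49 and Dnmt3b at 13.6 ± 1.25 FPKM overlapped between libraries, and were followed by Tet3 at 10.2 ± 1.51, Tet1 at 2.79 ± 0.22 and Tet2 at 1.68 ± 0.36. Maintenance genes thus led the order, and Tet3 was the most abundant TET transcript.

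At E12.5 the order had changed in the middle. Uhrf1 stood at 54.7 ± 8.97 FPKM and overlapped Dnmt1 at 42.6 ± 7.94. Dnmt3a followed at 22.2 ± 3.44, then Tet3 at 9.44 ± 2.08, Dnmt3b at 3.81 ± 0.28, Tet1 at 2.46 ± 0.54 and Tet2 at 1.38 ± 0.50. Dnmt3b had passed from above Tet3 at E10.5 to below it at E11.5 (7.23 ± 0.60 against 11.5 ± 0.20 FPKM) and E12.5. The deposited length of a gene joins all its exons. Dividing by the longest transcript instead exchanged only Tet1 and Tet2 at E10.5 in the order of the means. Dnmt3b and Tet3 were then close at E10.5, with means of 16.2 and 15.8 CPM per kilobase, and Dnmt3a was at 25.9. The nearness of Dnmt3a to Dnmt3b and the distance of Dnmt3b from Tet3 at E10.5 thus depend on the length used.

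**Figure D1:**
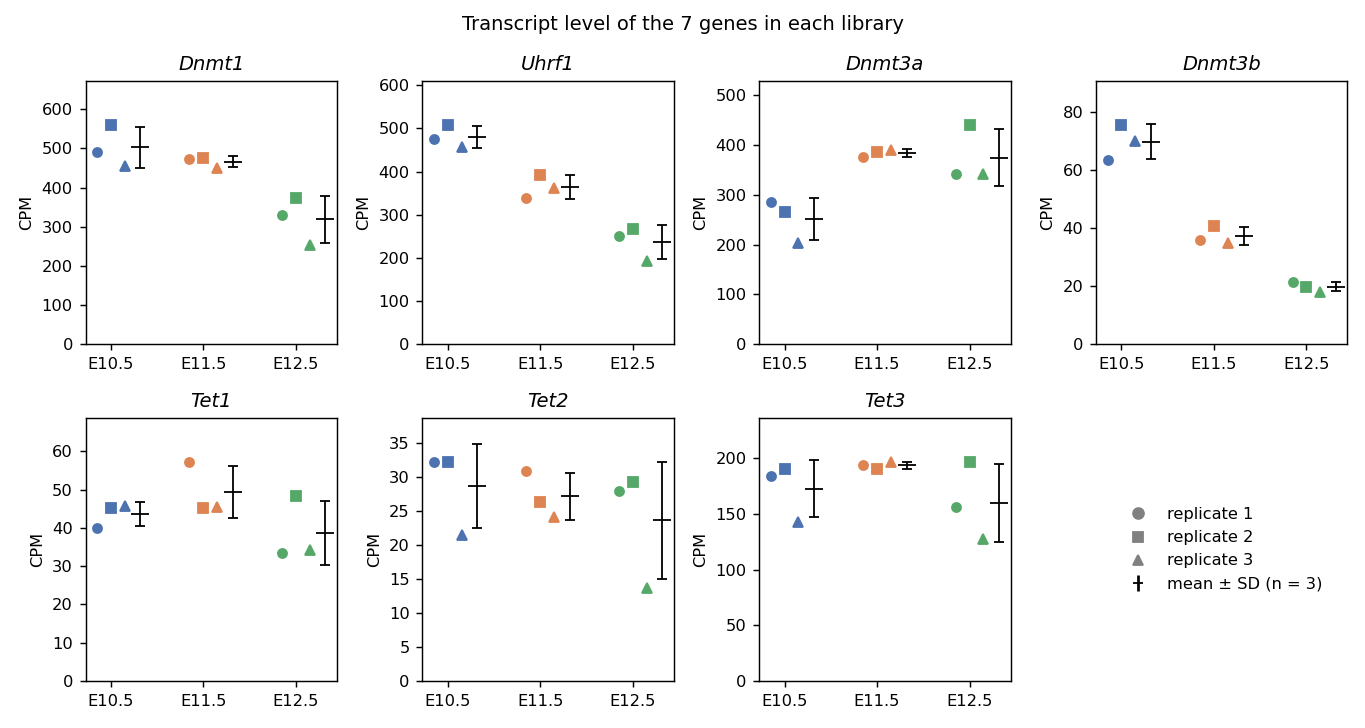
CPM of the 7 genes in the 9 libraries by stage, with symbols for the replicates and the mean ± SD of 3 libraries in black. Dnmt3b and Uhrf1 separate all 3 stages without overlap, Dnmt3a is lower in the 3 E10.5 libraries than in the rest, and the libraries of Tet1, Tet2 and Tet3 overlap between stages.

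Dnmt3b, on chromosome 2 (GRCm38, 153649450 to 153687730, plus strand), fell over both days. Its level was 63.7, 75.7 and 70.3 CPM in E10.5 replicates 1 to 3, 35.9, 40.8 and 35.1 in the E11.5 libraries and 21.4, 19.8 and 18.2 in the E12.5 libraries. The 3 stages did not overlap. From E10.5 to E11.5 Dnmt3b fell by 0.90 on the log2 scale (SE 0.12, edgeR adjusted p = 0.00344), and from E11.5 to E12.5 it fell by 0.92 (SE 0.13, adjusted p = 0.00157). Over both days the change was -1.81 (SE 0.18, adjusted p = 4.15e-05), from a mean of 69.9 to 19.8 CPM. The changes of the 2 days differed by -0.0055 on the log2 scale (SE 0.23, adjusted p = 0.996 for the difference), a value whose sign changed when single libraries were omitted.

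The Dnmt3b fall kept its call in every refit without a single library, with adjusted p up to 0.0339 for E11.5 vs. E10.5. Of the 50-base windows of its longest transcript, 11.5% occur in Dnmt3c, a related writer of male germ cells, so reads there could have been split or lost. Dnmt3c itself held at most 5 counts in a library. Dnmt3l, a cofactor of the new writers without its own activity, held 0 counts in the E10.5 libraries and at most 4 in any other. The forebrain and eye markers were higher at E10.5, together with Dnmt3b, but between E11.5 and E12.5, when Dnmt3b fell as far again, 0 of the 8 markers of that list that passed the filter were lower and 1 was higher.

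Dnmt3a, on chromosome 12 (3806007 to 3914443, plus strand), rose on the first day. It was at 285, 266 and 203 CPM in the E10.5 libraries, 375, 385 and 390 in the E11.5 libraries and 341, 440 and 342 in the E12.5 libraries. All E10.5 libraries lay below all later ones, and the E11.5 and E12.5 libraries overlapped. The log2 change from E10.5 to E11.5 was 0.61 (SE 0.13, edgeR adjusted p = 0.0247). Over both days the change was 0.58 (SE 0.20) with an adjusted p of 0.0502, just outside the threshold of 0.05, and from E11.5 to E12.5 it was -0.039 (adjusted p = 0.869).

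The calls of Dnmt3a depended on single libraries and settings. For the first day the adjusted p was 0.0614 when E10.5 replicate 2 was omitted, and 0.101, 0.0916 and 0.116 when E11.5 replicates 1, 2 and 3 were omitted in turn. Omitting E10.5 replicate 3, which had the lowest value, the change was 0.48 with an adjusted p of 0.00011. The change over both days passed the threshold under 8 of 18 alternatives, among them DESeq2 (adjusted p = 0.0328) and the removal of the GC trend (0.0214). The facial mesenchyme markers rose over the same interval, with 5 of 14 higher and 0 lower at E11.5 (12 higher and 2 lower without E10.5 replicate 3). Among all genes, 6.19% were higher and 5.58% lower at E11.5 (19.6% and 20% without that library). The part of these markers in the change of Dnmt3a was not tested.

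The balance of the new writers was therefore taken within each library, where scaling between libraries plays no part. The ratio of Dnmt3a to Dnmt3b, in counts per kilobase, was 1.37, 1.08 and 0.89 at E10.5, 3.20, 2.90 and 3.41 at E11.5 and 4.90, 6.80 and 5.77 at E12.5. The stages did not overlap. The mean ratio was higher by 2.40 on the log2 scale at E12.5 than at E10.5. The level of the ratio depends on the gene lengths used, and this difference does not. An exact permutation test over all assignments of the 9 libraries, which asks for any difference among the 3 stages, gave p = 0.00357, the smallest it can give (adjusted over 4 such tests 0.0143). A permutation of 3 libraries against 3 cannot go below 0.1, so single pairs of stages were not tested. The log2 difference was between 2.25 and 2.56 without any single library, each time with the same p. As a share of the counts per kilobase of the 3 DNMT genes, Dnmt3b went from 14.2% ± 1.39 to 5.64% ± 0.72, Dnmt3a from 15.6% ± 2.0 to 32.4% ± 2.80 and Dnmt1 from 70.3% ± 0.96 to 61.9% ± 2.85.

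**Figure D2:**
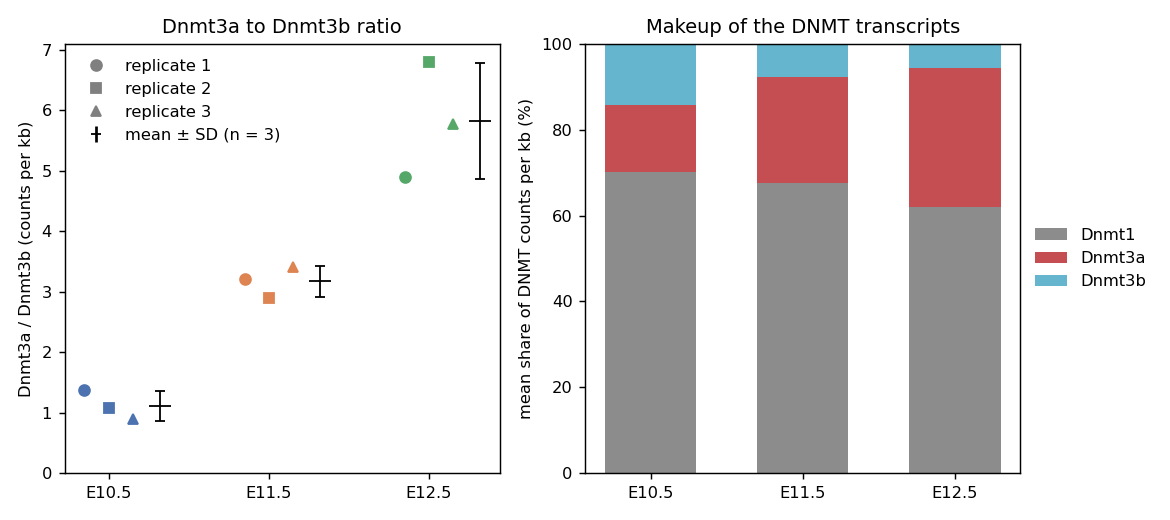
Left, ratio of Dnmt3a to Dnmt3b in counts per kilobase in each of the 9 libraries, with the mean ± SD of 3 libraries. Right, mean share of each gene in the counts per kilobase of Dnmt1, Dnmt3a and Dnmt3b by stage. The ratio is between 0.89 and 1.37 at E10.5 and between 4.90 and 6.80 at E12.5, and the Dnmt3a share grows while that of Dnmt3b shrinks.

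Uhrf1, on chromosome 17 (56303321 to 56323486, plus strand), fell in each comparison. It was at 475, 508 and 458 CPM in the E10.5 libraries, 338, 393 and 362 in the E11.5 libraries and 251, 267 and 192 in the E12.5 libraries, with no overlap between stages. The log2 change was -0.39 (SE 0.10, edgeR adjusted p = 0.0453) on the first day, -0.63 (SE 0.14, 0.0185) on the second and -1.01 (SE 0.18, 0.00269) over both.

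The change over both days kept its call under all 18 alternatives, and the change of a single day did not. The adjusted p of the first day was 0.102 and 0.134 when E10.5 replicates 1 and 2 were omitted, and 0.186, 0.0992 and 0.208 when E11.5 replicates 1, 2 and 3 were. That of the second day was 0.0857 and 0.065 when E11.5 replicates 2 and 3 were omitted, and 0.0672 when E12.5 replicate 1 was. Reads of Uhrf1 could be shared with the pseudogenes Gm15953 and Gm5648, which hold 18.9% of its 50-base windows and had at most 29 counts in a library.

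Dnmt1, on chromosome 9 (20907209 to 20959888, minus strand), changed on the second day. Its level was 491, 560 and 455 CPM in the E10.5 libraries, 472, 476 and 451 in the E11.5 libraries and 330, 372 and 254 in the E12.5 libraries. Each E12.5 library was below all others, and E10.5 and E11.5 overlapped. Dnmt1 fell by 0.55 from E11.5 to E12.5 (SE 0.15, edgeR adjusted p = 0.0345) and by 0.65 from E10.5 to E12.5 (SE 0.19, 0.0333). From E10.5 to E11.5 the log2 value was -0.10, with a 95% interval of -0.35 to 0.15 and an adjusted p of 0.582.

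Both calls of Dnmt1 were lost without some libraries. Over both days the adjusted p was 0.0727 and 0.132 when E10.5 replicates 1 and 2 were omitted, and 0.1001 and 0.0924 when E12.5 replicates 1 and 3 were. For the second day it was 0.101, 0.115 and 0.0902 when E11.5 replicates 1, 2 and 3 were omitted, 0.106 when E12.5 replicate 1 was, and 0.0543 in a fit of all 9 libraries. In a fit of all 3 stages, which asks whether a gene differed anywhere, Dnmt1 passed with an adjusted p of 0.0158, and 0.0568 when E12.5 replicate 1 was omitted. Dnmt3b (6.25e-06), Uhrf1 (9.38e-04) and Dnmt3a (0.0199) also passed in that edgeR fit, in which 28.3% of all genes did.

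The 3 TET genes were past the edgeR test in 0 of 3 comparisons, and their unadjusted p was at least 0.0597. Tet3, on chromosome 6 (83362373 to 83459084, minus strand), was at 184, 191 and 143 CPM at E10.5, 194, 190 and 197 at E11.5 and 156, 197 and 127 at E12.5. Tet1, on chromosome 10 (62804570 to 62908996, minus strand), was at 39.9, 45.1 and 45.8 CPM at E10.5, 57.3, 45.3 and 45.5 at E11.5 and 33.5, 48.3 and 34.2 at E12.5. Tet2, on chromosome 3 (133463679 to 133545139, minus strand), was at 32.2, 32.2 and 21.4 CPM at E10.5, 30.8, 26.4 and 24.1 at E11.5 and 27.8, 29.3 and 13.7 at E12.5. Each gene overlapped between every pair of stages, and replicate 3 was the lowest library of Tet2 at each of the stages.

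The 95% intervals show what the libraries leave possible for the TET genes. From E10.5 to E12.5 the log2 interval was -0.59 to 0.26 for Tet1, -0.90 to 0.36 for Tet2 and -0.55 to 0.35 for Tet3, with edgeR adjusted p of 0.584, 0.537 and 0.763. From E11.5 to E12.5 the value was -0.35 for Tet1 (adjusted p = 0.187) and -0.28 for Tet3 (0.250). Without E12.5 replicate 2, in which both were highest of their stage, these became -0.55 and -0.46 and passed, with adjusted p of 0.0115 and 0.012, in a fit that called 4976 genes in place of 1926. Within the TET counts per kilobase, Tet3 made up 69.4% ± 2.17 at E10.5 and 71.1% ± 0.39 at E12.5.

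**Figure D3:**
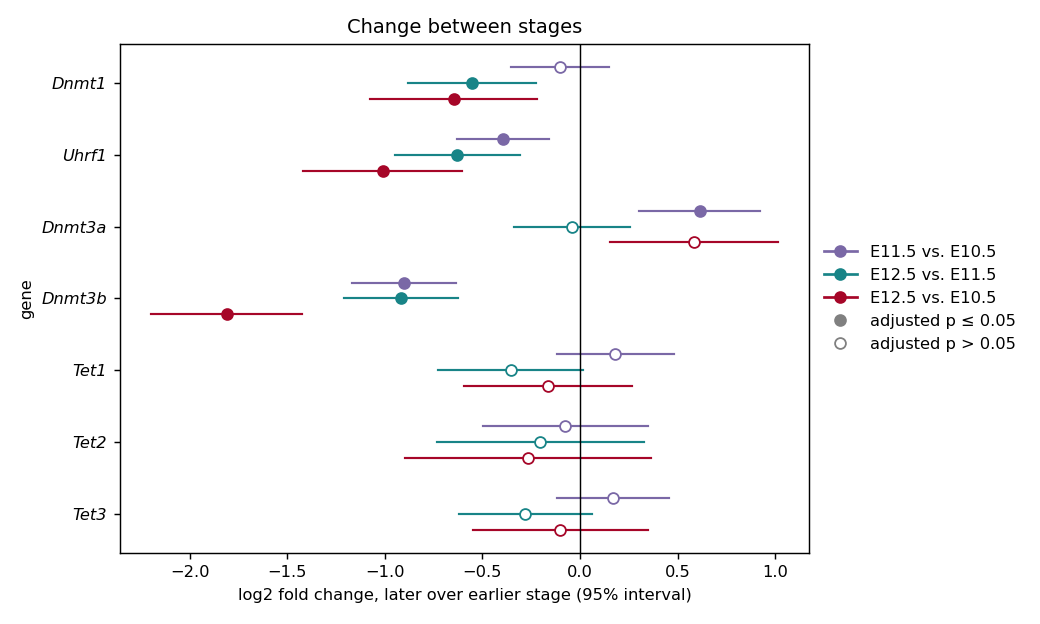
Log2 fold change of the 7 genes (later over earlier stage) with 95% intervals for the 3 comparisons; filled points have an edgeR adjusted p of at most 0.05. The intervals of Dnmt3b lie below 0 in each comparison, around -1.81 over both days, while those of Tet1, Tet2 and Tet3 include 0 throughout.

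Counted over the members, 1 of 7 was higher and 2 were lower at E11.5 than at E10.5, where 6.19% of 15708 genes were higher and 5.58% lower (11.8% in all). At E12.5 vs. E10.5 0 members were higher and 3 lower, against 14% and 10.5% of 15899 genes (24.6% in all). At E12.5 vs. E11.5 0 were higher and 3 lower, against 7.61% and 4.57% of 15808 genes (12.2% in all). Under the stricter rule of the study, which also asks for a log2 change of at least 1, Dnmt3b and Uhrf1 were the members lower at E12.5 than at E10.5, where 5.08% of genes were lower and 9.97% higher. Uhrf1 was near that limit: its value was -0.95 with upper quartile scaling, -0.998 and -0.999 with other filters on low counts, -0.98 with E10.5 replicate 2 omitted and -0.89 with E12.5 replicate 3 omitted. In the other comparisons 0 members passed that rule, against 3.46% of genes higher and 2.61% lower on the first day and 4.14% and 0.962% on the second. Libraries did not overlap for 4 of 7 members in E12.5 vs. E10.5, against 42.4% of all genes, and for 3 of 7 in each of the other comparisons, against 36.7% (E11.5 vs. E10.5) and 35.3%. The difference between the changes of the first and second day passed the edgeR test for 0 members and 1.18% of all genes. Dnmt3a had the smallest p of the members (difference -0.64, adjusted p = 0.366), and was the single member with an unadjusted p under 0.05 (0.0344).

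The ratio of the summed TET to the summed DNMT counts per kilobase was 0.161, 0.152 and 0.146 at E10.5, 0.183, 0.166 and 0.177 at E11.5 and 0.190, 0.206 and 0.182 at E12.5. The E10.5 libraries were below all others. The 3 stages differed in the exact permutation test of any difference among them (p = 0.00714, adjusted over 4 tests 0.0143), and the log2 difference from E10.5 to E12.5 was 0.33. With raw counts in place of counts per kilobase that difference was 0.058 and the permutation p of the 3 stages 0.664, so the call rests on the weight that length gives to each gene.

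Replication genes were set beside the members, since Dnmt1 and Uhrf1 are transcribed in S phase. Of the 40 S phase genes, 6 were lower at E11.5 than at E10.5, 17 were lower at E12.5 than at E10.5, 14 were lower at E12.5 than at E11.5, and 0 were higher in these fits. Among all genes, 5.58%, 10.5% and 4.57% were lower in these comparisons, and 6.19%, 14% and 7.61% higher. With E10.5 replicate 3 omitted, which raised the share of all genes called on the first day to 19.6% higher and 20% lower, 1 S phase gene was higher and 21 were lower on that day, and 20 were lower over both days. Over both days Mcm10, a replication initiation factor, changed by -1.14 on the log2 scale, Rrm2, a subunit of ribonucleotide reductase, by -1.17, Ccne1 (cyclin E) by -1.02 and Cdc6, which loads the replicative helicase, by -0.91. The median of the list was -0.48 and that of all genes -0.0063. Of the 20 genes of G2 and M phase, 0 passed at E11.5 vs. E10.5 and 11 were lower at E12.5 than at E10.5, among them Bub1b (-0.85) and Ccnb1 (-0.88). With E10.5 replicate 3 omitted, 3 were higher and 5 lower on the first day.

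Uhrf1 was taken relative to the mean of the S phase genes in the same library. This ratio was 4.54, 4.77 and 3.91 at E10.5, 3.76, 4.0 and 3.95 at E11.5 and 3.50, 3.71 and 2.46 at E12.5. The E12.5 libraries lay below all others. The exact permutation test of any difference among the 3 stages gave p = 0.0143 (adjusted over 4 tests 0.019), and the log2 difference from E10.5 to E12.5 was -0.47. The permutation p was above 0.05 when any of 6 libraries was omitted: 0.0643 and 0.0714 for E10.5 replicates 1 and 2, 0.0607, 0.0679 and 0.0714 for E11.5 replicates 1, 2 and 3, and 0.0857 for E12.5 replicate 3. For Dnmt1 the difference from E10.5 to E12.5 was -0.10 (exact permutation p of the 3 stages = 0.532), and 0.092 without E12.5 replicate 3.

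**Figure D4:**
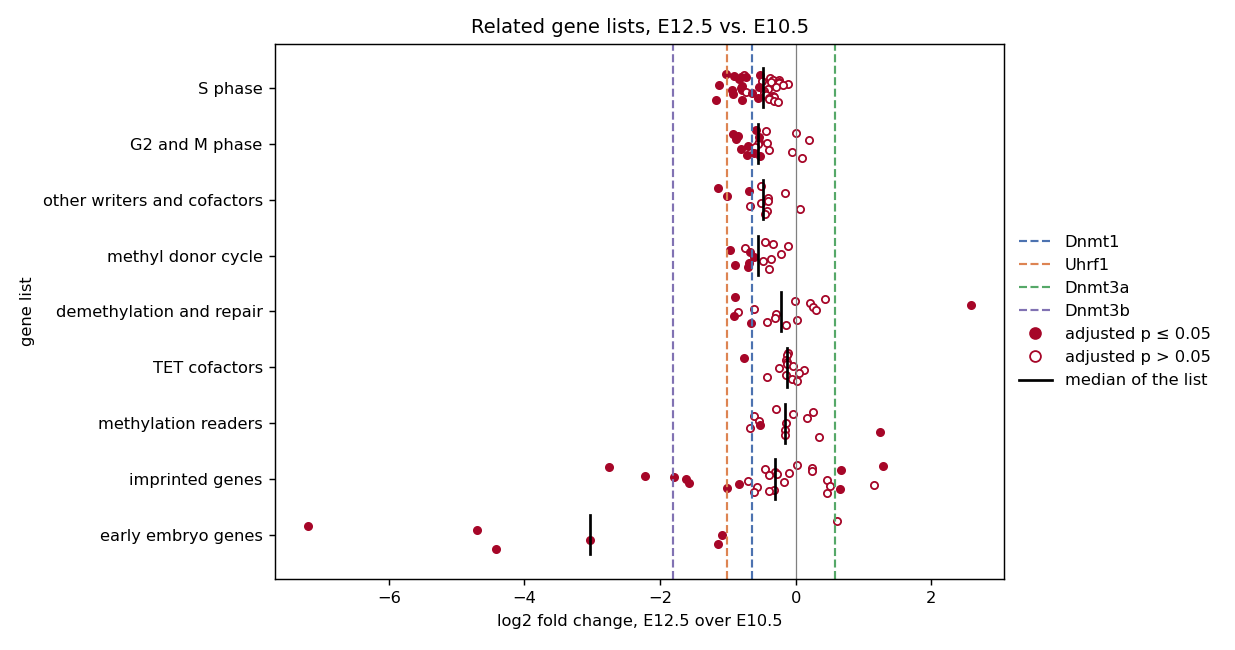
Log2 fold change from E10.5 to E12.5 of the genes of 9 related lists, with filled points for an edgeR adjusted p of at most 0.05 and a black bar at the median of each list; dashed lines mark Dnmt1, Uhrf1, Dnmt3a and Dnmt3b. The S phase genes lie at or left of 0 with a median of -0.48, and Dnmt3b at -1.81 lies to the left of all of them.

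Of 12 other tested genes that help write methylation, 1 was lower at E11.5 vs. E10.5, 3 at E12.5 vs. E10.5 and 3 at E12.5 vs. E11.5, and 0 were higher. Among all genes, 5.58%, 10.5% and 4.57% were lower in these comparisons, and 6.19%, 14% and 7.61% higher. With E10.5 replicate 3 omitted, 2 were higher and 5 lower on the first day, when 19.6% of all genes were higher and 20% lower. Cdca7l, a relative of the Hells activator Cdca7, changed by -0.79 on the first day and by -1.14 over both. These values were -0.64 and -0.99 with E10.5 replicate 3 omitted. Hells, a chromatin remodeller needed for methylation of repeats, was at 155, 164 and 342 CPM in the E10.5 libraries, 151, 164 and 148 in the E11.5 libraries and 101, 114 and 111 in the E12.5 libraries. Its log2 change was -1.01 (edgeR adjusted p = 0.0237) from E10.5 to E12.5 and -0.51 (0.0176) from E11.5 to E12.5, and the highest value was that of E10.5 replicate 3. With that library omitted the change over both days was -0.54 (0.0199). Ehmt1, a histone methyltransferase, changed by -0.68 and -0.57 in the same comparisons.

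The methyl donor cycle makes S-adenosylmethionine from folate and methionine. Of its 14 tested genes, 3 were lower at E11.5 vs. E10.5, 6 at E12.5 vs. E10.5 and 1 at E12.5 vs. E11.5, with 0 higher. Among all genes, 5.58%, 10.5% and 4.57% were lower in these comparisons. With E10.5 replicate 3 omitted, 8 were lower on the first day, and over both days 8 were lower and 1 higher. Without that library, 20% of all genes were lower on the first day and 13.4% over both days. Over both days, with all libraries, the serine hydroxymethyltransferases Shmt1 and Shmt2 changed by -0.90 and -0.70 and the folate enzyme Mthfd1 by -0.62. The list's median over both days was -0.55. Several of these genes serve nucleotide synthesis as well as methylation.

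Genes that work after or beside the TET enzymes were counted in the same way. Of 16 tested demethylation and repair genes, 1 was higher and 3 lower at E12.5 than at E10.5, a share like the 24.6% of all genes. Gadd45b, a stress-induced gene linked to active demethylation, rose from 2.11 ± 0.34 to 4.75 ± 0.27 and 12.7 ± 2.57 CPM, a log2 change of 2.59 over both days (edgeR adjusted p = 7.24e-05). The lower ones were the repair genes Apex1 (-0.90), Parp1 (-0.91) and Ung (-0.65). Omitting E10.5 replicate 3 gave 4 lower on the first day in place of 0. Of 14 TET cofactors, Cxxc5, a CpG-binding protein that can recruit TET enzymes, was the single gene past the test, at -0.43 at E11.5 vs. E10.5 and -0.77 at E12.5 vs. E10.5. Among all genes, 11.8% and 24.6% passed in these comparisons. Of 13 genes listed as readers of methylated DNA or their partners, Zbtb4 was higher (1.25) and Trim28, the KRAB corepressor, lower (-0.52) at E12.5 than at E10.5. On the first day, with E10.5 replicate 3 omitted, 2 TET cofactors were higher and 6 lower, and 2 genes of the reader list were higher and 3 lower. In that fit 19.6% of all genes were higher and 20% lower.

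Genes whose silence or dosage depends on DNA methylation were examined last. Of 28 germline genes that methylation is known to silence in somatic cells, 5 at most passed the filter on low counts, and 6 were at 0 in all 9 libraries (Tex101, Hormad1, Sohlh2, Mov10l1, Rpl10l and Tuba3b). The sum of the list lay between 13.4 and 17.9 CPM in the E10.5 libraries, between 16.3 and 22.1 in those of E11.5 and between 28.1 and 36.3 in those of E12.5. Brdt, a testis bromodomain gene, made up much of that rise, with 2.14 ± 0.47, 4.38 ± 0.79 and 15.5 ± 3.28 CPM (log2 change over both days 2.86, edgeR adjusted p = 4.39e-05). It was the single gene of the list past the test in each comparison, among 4 tested at E11.5 vs. E10.5 and 5 in the others. Among all genes, 11.8% passed at E11.5 vs. E10.5, 24.6% at E12.5 vs. E10.5 and 12.2% at E12.5 vs. E11.5.

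Imprinted genes, which are expressed from a single parental allele under the control of methylated regions, moved in both directions. Of 28 tested, 3 were higher and 7 lower at E12.5 than at E10.5, and 8 were lower at E11.5 than at E10.5 (13, with 2 higher, when E10.5 replicate 3 was omitted). Among all genes, 14% were higher and 10.5% lower over both days. On the first day 5.58% were lower (20%, with 19.6% higher, when that library was omitted). Dlk1, a Notch-like growth regulator, changed by -1.78 on the first day and by -2.75 over both. Mest and Peg10 changed by -1.62 and -1.57 over both days, whereas Cdkn1c, an inhibitor of the cell cycle, rose by 1.29. Counts per gene do not separate the parental alleles.

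Early embryo genes were also counted. Of 16 listed, 9 were too low in counts to be tested. Of the 7 tested, 6 were lower at E11.5 than at E10.5, 6 at E12.5 than at E10.5 and 4 at E12.5 than at E11.5, with 0 higher. Among all genes, 5.58%, 10.5% and 4.57% were lower in these comparisons. Lin28a, which blocks maturation of let-7 microRNAs, fell from 80.7 ± 26.1 CPM to 4.18 ± 1.71 and 0.54 ± 0.29, and Sall4, a zinc finger factor of early cells, changed by -3.03 on the log2 scale over both days. Sox2 and Otx2 of this list also mark forebrain and eye.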

How the data were processed

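Lambdoidal junction RNA of 9 pools of embryos (3 stages, 3 libraries each) was sequenced. The authors mapped reads to mm10 with HISAT2 2.0.5 (versions from the submitters' processing notes) and counted them per gene with featureCounts. The strand setting and the handling of multiply mapped reads were not given in the sources used here. The authors deposited whole-number read counts, without normalization, and FPKM values. In addition, 15 deposited columns hold the authors' own fold changes and p-values and were not used.

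Stages were compared in pairs, with the 6 libraries of a pair fitted alone, in R 4.3.3 with edgeR 4.0.16 (filterByExpr, TMM, quasi-likelihood test). P-values were adjusted by Benjamini-Hochberg over all genes tested, and a gene passed at an adjusted p of at most 0.05. CPM used TMM-scaled sizes of all 9 libraries. Limma 3.58.1 came with edgeR, and DESeq2 1.42.0 was an alternative. The 3 stages were also fitted together, and ratios within a library were tested by exact permutation. Scripts were tested on simulated data. Figures were drawn in Python 3.11.15. Alternatives covered normalization, filters, GC content, a replicate block and leaving out each library. List counts without E10.5 replicate 3 were added after seeing the data.

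The 7 genes and all lists were chosen with earlier results of these data known, so no list is independent evidence. At most the 4 genes of a list with the smallest p in a comparison were named. Genes named for another reason were chosen after their values were seen. The result of 1 listed gene is not reported here. Coordinates are those of the deposited table (GRCm38). Counts ranged from 16581009 to 20836804 per library. They are of amplified reads without molecular identifiers.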

Additional observations from a re-analysis of the deposited data

How the results depend on the processing

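Dnmt3b and Uhrf1 at E12.5 vs. E10.5 kept direction and call under all 18 alternatives. The ratio of Dnmt3a to Dnmt3b did so without each library (2.25 to 2.56). At E11.5 vs. E10.5 the number of members higher was 0 with a log2 change of at least 1 or an adjusted p of at most 0.01, and 0 to 1 without single libraries; members lower were 1 with all genes of at least 1 count, the fit on 9 libraries, the replicate block or an adjusted p of at most 0.01, 0 with a log2 change of at least 1, and 1 to 2 without single libraries. At E12.5 vs. E10.5 1 member (Dnmt3a) was higher under upper quartile scaling, DESeq2, at least 1 count, 9 libraries, the block, GC removal, GC removal with the block and protein-coding genes. At E12.5 vs. E11.5 members lower were 0 with the log2 threshold, 1 at an adjusted p of 0.01, 2 in the fit on 9 libraries and 1 to 5 without single libraries. Over all genes, E11.5 vs. E10.5 gave 1849 calls, 3531 with GC removed, 2907 with the block as well, 954 with the log2 threshold, 576 at 0.01 and 477 to 6447 without single libraries (6447 without E10.5 replicate 3). E12.5 vs. E10.5 gave 3906, and 5899 with GC removed and the block, 2392, 1932 and 2202 to 4962. E12.5 vs. E11.5 gave 1926, and 3242 with at least 1 count, 1179 on 9 libraries, 806, 700 and 716 to 4976. The TET to DNMT difference was 0.058 without length and 0.28 to 0.37 without single libraries. Uhrf1 relative to S phase genes was -0.58 to -0.29 without single libraries, and Dnmt1 relative to them -0.24 to 0.092 (0.092 without E12.5 replicate 3).

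Signs changed only where the test was not passed. Tet2 at E11.5 vs. E10.5 ranged from -0.24 to 0.016 with single libraries omitted (0.016 for E10.5 replicates 1 and 2, 0.0073 for E11.5 replicate 3). At E12.5 vs. E10.5 the range was -0.46 to 0.0023 for Tet2 and -0.28 to 0.038 for Tet3, and for Tet2 at E12.5 vs. E11.5 -0.39 to 0.061, each positive only with E12.5 replicate 3 omitted. Dnmt3a at E12.5 vs. E11.5 was 0.012 with upper quartile scaling and -0.18 to 0.028 with single libraries omitted (0.028 and 0.012 for E12.5 replicates 1 and 3). The difference between days was 0.013 for Dnmt3b with upper quartile scaling and -0.081 to 0.14 without single libraries (0.054, 0.14, 0.0023 and 0.048 where positive), and for Tet2 -0.29 to 0.15 (0.0045, 0.091 and 0.15 where positive). The cause of these changes was not tested. Libraries with the same replicate number correlated between -0.15 and 0.22, above 0.1 in 2 of 9 pairs, so the numbers were not treated as pairing them. With the replicate block, 1268 genes passed for the first day, 4468 for both days and 2191 for the second. The lowest count of a member was 230 (Tet2). Counting error was close to the spread between pools for Tet3 at E11.5, with 1.59% to 1.66% per library against a coefficient of variation of 1.73%.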

Other observations

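The genes most like each member over the 9 libraries (Pearson correlation of log2 CPM with 16374 other genes, a description only) were as follows. Uhrf1 was most like Parp1 (0.999), Mapk6 and Map3k4 (both 0.991), Dnmt3b most like Arid3b (0.996), Cep78 (0.994) and Car14 (0.993), and Dnmt1 most like Klhdc10 (0.996), Ticrr (0.993) and Pcnt (0.991). Dnmt3a was most like Rtl6 (0.987), Nrp2 (0.986) and C1qtnf1 (0.984). The closest gene was Vps11 for Tet2 (0.987), Foxk1 for Tet3 (0.981) and Apaf1 for Tet1 (0.962). A correlation above 0.9 was reached by 706 genes with Uhrf1, 666 with Dnmt3b, 618 with Dnmt1, 302 with Dnmt3a, 169 with Tet3, 102 with Tet2 and 54 with Tet1. Among the members, Dnmt3b and Uhrf1 correlated at 0.964 and Dnmt3a and Dnmt3b at -0.73. Libraries of a stage share that stage and all share their scaling, so no p is given.

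Of other cell types, endothelial markers had 0 of 10 genes past the edgeR test in each comparison, and 1 higher and 3 lower at E11.5 than at E10.5 with E10.5 replicate 3 omitted. Without that library, 19.6% of all genes were higher and 20% lower at E11.5 than at E10.5. Erythroid markers had 4 of 12 higher and 4 lower at E12.5 than at E10.5, with adult globin Hbb-bs higher (4.65) and embryonic Hbb-bh1 lower (-2.43). Of 10 neural crest, glia and pigment markers, 4 were higher and 3 lower over both days, with a median log2 change of -0.13. Of 11 neuronal markers 2 were higher, Stmn2 (2.61) and Gap43 (1.58), and of 11 macrophage markers 2, Mrc1 (1.30) and C1qa (1.67). Of 4 tested muscle markers, Des was lower (-4.22). Of 12 epithelial markers 4 were higher and 3 lower, with a median log2 change of -0.083. Of 14 skeletal differentiation markers, 12 were higher and 1 lower over both days. Among all genes, 14% were higher and 10.5% lower over both days.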
